A study of Mus musculus with 8 samples.

Results

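The genes described here are p53, its regulators and its established transcriptional targets, as measured in LB-22 cells after knockdown of Wt1. Of 31 gene symbols chosen by function, 29 were matched to 55 probe sets, out of 18193 named genes and 45037 probe sets in all, and the p53 gene itself (Trp53) and Fdxr were not analysed here. LB-22 is an immortalized mouse embryonic kidney cell line. The 4 Wt1 siRNA samples received 25 pmol of an siRNA against Wt1 for 6 h, and the 4 control siRNA samples received the same amount of a scrambled siRNA. Both groups came from cells expanded at 33 °C with interferon gamma and moved at transfection to 37 °C without it, and total RNA was taken at 48 h and hybridized to Affymetrix Mouse 430_2 arrays, 1 per sample. That culture scheme is the one used for lines that carry a temperature-sensitive SV40 large T antigen, a viral protein that binds p53, but the sources used here do not name the immortalizing gene of LB-22. The labels do not say whether replicates were separate cultures. The p-values therefore reflect the spread among these 8 samples, which may be technical.

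p53 is a transcription factor that is kept low in unstressed cells by the ubiquitin ligase Mdm2 and the related inhibitor Mdm4. Damage kinases and other stress signals release it, and it then binds a paired decamer, the p53 site, near genes that repair DNA, halt division, retune metabolism or trigger death. Mdm2 and the phosphatase gene Ppm1d are targets too, which closes a negative feedback loop. Wt1 encodes a kidney developmental regulator with zinc fingers whose DNA site resembles that of the Egr factors.

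Of the 29 genes with probe sets, 22 had a promoter window in RefSeq (27 windows on GRCm38.p6, each from 250 bases before to 50 bases after a start of transcription). The p53 half-site, which reads the same on both strands, was found in 9 of the 27 windows (33.3%), belonging to 8 genes, against 8.36% of 32851 windows over all genes. Both windows of Aen hold the same match. The WT1 and Egr type site GCGNGGGNG, searched on both strands, was found in 4 member windows (14.8%), against 12.3% of all windows, and in the Ppm1d window it shared 1 base with the p53 half-site. These windows are short and a match is a match of letters only. Gadd45a, Polk, Ppm1d and Rps27l also held a half-site and did not pass the test. Eda2r, Ephx1, Phlda3, Pidd1 and Sertad1 passed and had no half-site in their windows. The windows of the 4 genes with a half-site whose signal passed the test are given here, 3 that were higher after Wt1 siRNA and 1 that was lower, with the half-site in capitals. The Sesn1 window shown also holds a WT1 and Egr type site just before the start, not marked, and the other Sesn1 window has neither site.
Ei24, chr9:36797285-36797584, minus strand: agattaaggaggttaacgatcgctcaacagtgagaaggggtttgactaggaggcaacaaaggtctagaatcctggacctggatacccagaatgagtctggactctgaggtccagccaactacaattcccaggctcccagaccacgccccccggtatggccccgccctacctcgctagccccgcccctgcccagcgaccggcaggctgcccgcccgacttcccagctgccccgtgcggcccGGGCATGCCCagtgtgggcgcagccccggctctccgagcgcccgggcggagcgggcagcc
Aen, chr7:78895808-78896107, plus strand: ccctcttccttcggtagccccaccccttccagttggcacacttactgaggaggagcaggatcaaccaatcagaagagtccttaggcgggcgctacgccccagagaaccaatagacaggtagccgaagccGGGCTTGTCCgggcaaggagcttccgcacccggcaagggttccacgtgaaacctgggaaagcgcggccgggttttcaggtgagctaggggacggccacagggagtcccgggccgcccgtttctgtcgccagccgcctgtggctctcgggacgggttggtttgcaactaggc
Mdm2, chr10:117710709-117711008, minus strand: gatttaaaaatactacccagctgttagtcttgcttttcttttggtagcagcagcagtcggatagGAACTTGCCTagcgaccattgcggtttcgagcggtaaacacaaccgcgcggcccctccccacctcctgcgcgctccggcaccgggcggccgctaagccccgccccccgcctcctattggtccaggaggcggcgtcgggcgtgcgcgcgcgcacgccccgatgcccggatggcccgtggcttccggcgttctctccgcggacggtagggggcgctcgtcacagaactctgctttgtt
Sesn1, chr10:41887189-41887488, plus strand: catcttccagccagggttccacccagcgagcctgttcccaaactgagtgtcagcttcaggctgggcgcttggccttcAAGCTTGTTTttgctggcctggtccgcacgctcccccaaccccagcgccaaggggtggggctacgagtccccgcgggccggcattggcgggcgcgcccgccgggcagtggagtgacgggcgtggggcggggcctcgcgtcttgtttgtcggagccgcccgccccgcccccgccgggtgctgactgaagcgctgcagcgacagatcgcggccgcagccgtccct

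All values are MAS5 signals, a linear brightness per probe set that the authors scaled to the same trimmed mean on every array, and each gene is described by its brightest probe set. Wt1 itself stood at 20.5% of control (1610 ± 251 on Wt1 siRNA arrays and 7787 ± 607 on control siRNA arrays, SD, n = 4 each). The exact permutation p, two-sided, was 0.0286, the lowest value possible with 4 against 4. Array pairs correlated at 0.977 to 0.991 within Wt1 siRNA, 0.981 to 0.990 within control siRNA and 0.940 to 0.960 between groups, over the log2 signals of the 9096 tested genes. Of the lists used to check the cell type, nephrogenic mesenchyme genes were detected only in part: Osr1, Hoxa10, Six2 and Eya1 lay above every bacterial control probe set (227.2) on all 8 arrays, and Sall1, Hoxd11, Cited1, Gdnf and Itga8 did not. The summed signal of 4 podocyte markers was 1476 to 2098 on Wt1 siRNA arrays and 3152 to 6050 on control siRNA arrays, that of 10 kidney epithelial markers 15360 to 15792 and 18394 to 20918, and that of 11 mesenchyme and stroma markers 105560 to 148526 and 117888 to 139093. Sums were 5133 to 6605 and 4213 to 4508 for 9 nephrogenic mesenchyme markers, 1705 to 2050 and 2078 to 2897 for 6 endothelial markers and 4902 to 5354 and 4246 to 5257 for 6 leukocyte markers, of which Ptprc, Cd3e and Adgre1 did not lie above the bacterial controls on all arrays. Of the podocyte markers only Podxl and Synpo, and of the endothelial markers only Kdr, lay above the bacterial controls on all arrays. Neither did the epithelial markers Cdh16, Lhx1, Calb1 and Umod, nor the stroma markers Pdgfra, Pdgfrb, Foxd1 and Thy1, lie above them on all arrays. These sums rest on a few bright genes, and members of a list differed. Of 5 tested mesenchyme and stroma markers, 3 fell and 0 rose (Col1a1 to 63.6%, Col3a1 to 60.6% and Dcn to 38.9% of control), while Vim, the brightest, did not pass (adjusted p = 0.116). Among 4 tested epithelial markers Epcam fell to 23.3% of control, Jag1 to 55.8% and Krt18 to 87.4%, but Krt8 rose 1.46-fold, and Cdh1, below the filter, was at 194% of control without overlap. Of 3 tested leukocyte markers Cd68 rose 1.98-fold and Csf1r fell to 59.2% of control. The part of these shifts in the results below was not tested, and in bulk RNA fewer cells of a type and less RNA per cell cannot be told apart. Control siRNA array 3 had the highest ratio of 3′ to 5′ signal on every control transcript measured, and the cause was not tested. The margin was small for beta-actin (1.21, against 1.11 to 1.15 on the other arrays) and for Gapdh (0.91, against 0.79 to 0.89). The ratio of 3′ to 5′ signal of the transferrin receptor control transcript was 3.78 to 4.80 on Wt1 siRNA arrays, 2.88 to 5.51 on control siRNA arrays 1, 2 and 4, and 10.49 on control siRNA array 3. That of pyruvate carboxylase was 2.44, 2.76, 2.39 and 1.48 on Wt1 siRNA arrays 1 to 4, and 1.59, 1.78, 3.71 and 1.31 on control siRNA arrays 1 to 4.

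Most p53 pathway genes did not pass the test, and those that did showed small differences, mostly rises, apart from larger falls of Eda2r and Sesn1. Of the 27 members bright enough to be tested, 8 rose (Ei24, Aen, Sertad1, Perp, Ephx1, Trp53inp1, Mdm2 and Phlda3), 3 fell (Eda2r, Sesn1 and Pidd1) and 16 did not pass an adjusted p of 0.05 with limma. The share called was 40.7%, close to the 37.3% of all 9096 tested genes, of which 18.8% rose and 18.5% fell. The rises spanned 1.15-fold to 1.56-fold, whereas Eda2r stood at 41.5% of control and Sesn1 at 51.3%. The median log2 difference, Wt1 siRNA minus control siRNA, was 0.16 over the tested members and 0.02 over all tested genes, and 18 of the 27 members had a positive difference, against 52.4% of all tested genes. On 12 of the 27 the groups did not overlap, 9 with Wt1 siRNA above and 3 below, against 36.3% of all tested genes (18% above and 18.3% below). The median size of the difference without its sign was 0.24 for members and 0.21 for all tested genes.

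**Figure D1:**
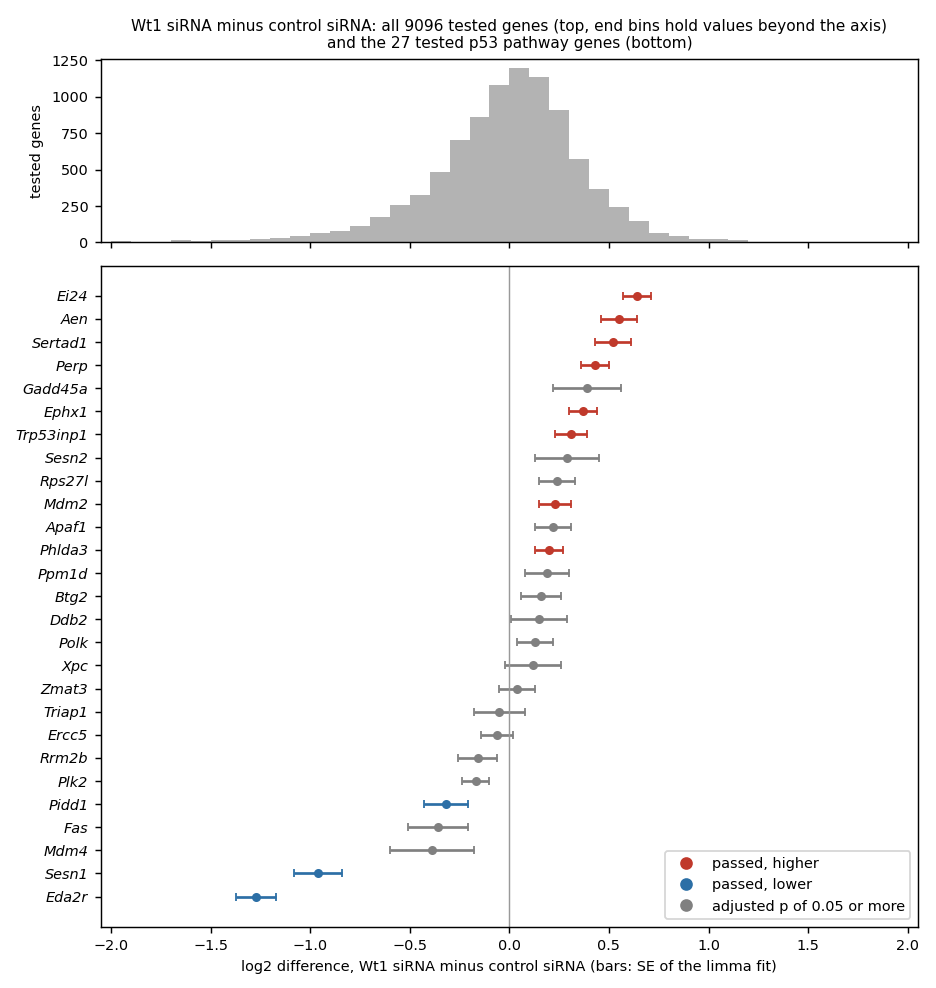
The top panel counts all 9096 tested genes by their log2 difference, Wt1 siRNA minus control siRNA, and the bottom panel gives the 27 tested p53 pathway genes on the same axis with the SE of the limma fit (4 arrays a group). Red genes rose, blue genes fell and grey genes did not pass; most members lie within 0.7 of 0, and Eda2r (-1.27) and Sesn1 (-0.96) stand to the left.

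The arrays did not show this alike. Of the 27 members, 18, 20, 20 and 13 lay above the control mean on Wt1 siRNA arrays 1 to 4, and 13, 9, 19 and 14 on control siRNA arrays 1 to 4. The median member deviated by 0.17, 0.22, 0.21 and -0.03 (log2) on the Wt1 siRNA arrays, and by -0.02, -0.03, 0.06 and 0.01 on the control siRNA arrays. Among the Wt1 siRNA arrays, the ratio of 3′ to 5′ signal was likewise lowest on array 4 for every control transcript measured. The margin was small for beta-actin (1.11, against 1.13 to 1.15). Among the control siRNA arrays the ratio was highest on array 3, and its part in the result was not tested. By the median member deviation, Wt1 siRNA array 4 lay among the control arrays. It held the lowest value of its group for 16 of the 27 members, against 40.6% of all tested genes. Without that array 9 members rose, 2 fell and the median was 0.21, and without control siRNA array 3 there were 9 rises, 3 falls and a median of 0.20. The spread within groups was typical, with a median SD of 0.142 (log2) over the members and 0.142 over all tested genes.

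**Figure D2:**
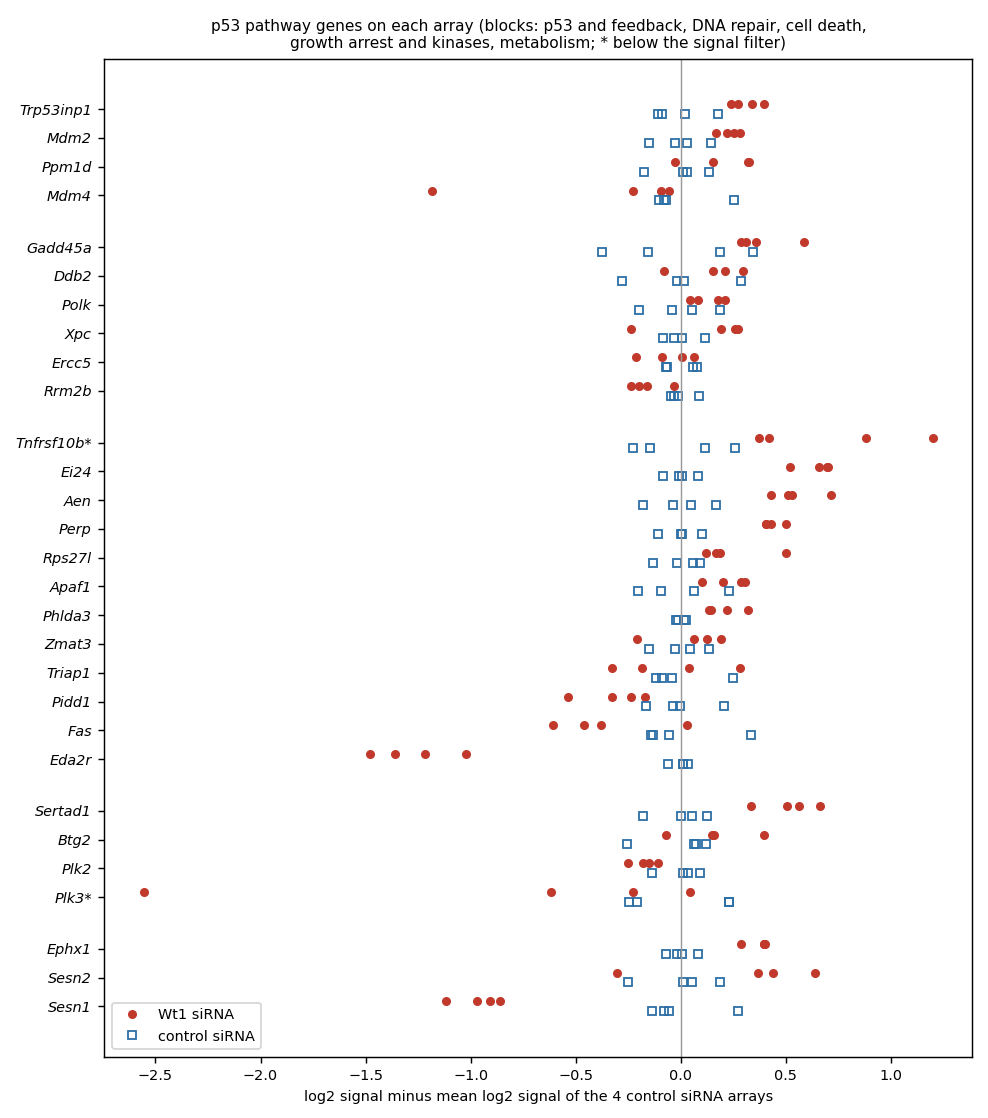
Each row is a p53 pathway gene and each point an array, as the log2 signal minus the mean log2 signal of the control siRNA arrays (red circles, 4 Wt1 siRNA arrays; blue squares, 4 control siRNA arrays). Groups are clearly apart for Ei24, Aen, Perp, Sertad1 and Ephx1 on the right and for Eda2r and Sesn1 on the left, while the DNA repair genes overlap in every case; asterisks mark Tnfrsf10b and Plk3, which lay below the signal filter.

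Among p53's regulators, the feedback inhibitor gene Mdm2 was modestly higher and its partner Mdm4 was not shown to differ. Mdm2 had signals of 28859.1, 29892.7, 30643.5 and 31254.0 on Wt1 siRNA arrays 1 to 4, against 23127.7, 26274.2, 28424.1 and 25251.2 on control siRNA arrays 1 to 4. The groups lay apart by a narrow margin, and Mdm2 rose 1.17-fold (log2 difference 0.23 ± 0.08, SE; adjusted p = 0.0301). The call was lost without Wt1 siRNA replicate 2 (0.0636) or 3 (0.0725), without control siRNA replicate 1 (0.0644), 2 (0.0554) or 4 (0.0821), with arrays centred on their medians (0.0699), with no filter on signal (0.0652) and when its probe sets were averaged (0.431). A second bright Mdm2 probe set had the same log2 difference, 0.23 ± 0.15, and did not pass (adjusted p = 0.305), with its lowest value, 14488.3, on control siRNA array 3. Mdm4, which blocks the transactivation domain of p53, had signals of 1663.7, 1709.3, 1518.5 and 781.4 on Wt1 siRNA arrays, against 1679.8, 1654.3, 2117.1 and 1692.0 on control siRNA arrays. Only Wt1 siRNA array 4 was far below the others, and the difference was -0.39 ± 0.21 (adjusted p = 0.157). The other 2 tested Mdm4 probe sets were at -0.56 ± 0.24 and -0.69 ± 0.34 and did not pass either (adjusted p = 0.112 and 0.168). Without Wt1 siRNA replicate 4 the brightest was at -0.13 (adjusted p = 0.408), whereas the last of these moved to -0.96 and passed (adjusted p = 0.046).

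Trp53inp1, which encodes a stress-induced nuclear protein that promotes p53 activity, had signals of 26153.1, 28443.1, 27401.3 and 25554.3 after Wt1 siRNA and 20313.5, 21927.4, 24495.1 and 20098.4 after control siRNA. All 4 Wt1 siRNA arrays were above all controls, and the gene rose 1.24-fold (0.31 ± 0.08, adjusted p = 0.00738). Its dimmer probe set was at 0.47 ± 0.29 (adjusted p = 0.269), with control siRNA array 3 at 1298.4 and the other 7 arrays between 3523.1 and 4792.1. Ppm1d, whose phosphatase product switches off p53 and its kinases, was at 0.19 ± 0.11 with overlapping groups (adjusted p = 0.167).

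No DNA repair gene passed the test. The group holds Ddb2 and Xpc, which recognise bulky DNA lesions, the excision nuclease gene Ercc5, the ribonucleotide reductase subunit gene Rrm2b, the translesion polymerase gene Polk and Gadd45a, a damage-induced growth arrest gene. All 6 were tested, and 0 rose and 0 fell by limma, against 18.8% and 18.5% of all tested genes. At an unadjusted p under 0.05, 1 was higher (Gadd45a) and 0 were lower. The groups overlapped for each of the 6, while they did not overlap for 36.3% of all tested genes. Their log2 differences ran between -0.16 ± 0.10 for Rrm2b and 0.39 ± 0.17 for Gadd45a, with a median of 0.12. Xpc, for instance, had 1159.4, 1212.7, 1225.4 and 860.9 on Wt1 siRNA arrays and 992.2, 955.8, 1098.7 and 1018.9 on control siRNA arrays (0.12 ± 0.14, adjusted p = 0.509). Wt1 siRNA arrays 1 to 3 exceeded every control and array 4 lay under all of them. Gadd45a had signals of 748.6, 878.4, 725.0 and 711.4 after Wt1 siRNA, against 665.0, 450.2, 523.9 and 741.9 after control siRNA (adjusted p = 0.0945). Control siRNA array 4 is the one that reached into the Wt1 siRNA range, and without it Gadd45a passed (0.50, adjusted p = 0.0475), as it did under quantile normalization (0.0469) and median centring (0.0482). Second tested probe sets of Ddb2 (0.00 ± 0.17), Rrm2b (-0.03 ± 0.18) and Polk (-0.20 ± 0.17) did not pass.

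Genes of the death pathway went both ways. Of 11 tested, 4 rose (Ei24, Aen, Perp and Phlda3), 2 fell (Eda2r and Pidd1) and 5 did not pass. The share called was 54.5% of this small group, against 37.3% of all tested genes, of which 18.8% rose and 18.5% fell. The largest rise belonged to Ei24, an endoplasmic reticulum protein gene first known as an etoposide-induced p53 target. Its signals were 16776.6, 17271.8, 17212.7 and 15206.6 on Wt1 siRNA arrays and 10024.7, 10672.5, 11247.6 and 10566.8 on control siRNA arrays. The lowest Wt1 siRNA value exceeded the highest control by a wide margin, and Ei24 rose 1.56-fold (0.64 ± 0.07, adjusted p = 1.37e-05). It ranked 256 among 9096 genes, counted from the largest rise.

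Aen, which encodes a nuclease that helps degrade DNA in apoptosis, had signals of 9192.0, 11202.8, 9855.2 and 9734.6 after Wt1 siRNA and 7053.3, 6036.3, 7674.7 and 6647.7 after control siRNA. The groups were apart and Aen rose 1.46-fold (0.55 ± 0.09, adjusted p = 0.000325). A second probe set rose alike (0.53 ± 0.16, adjusted p = 0.0311), though control siRNA array 3 was lowest there at 2216.9 and the call was lost without Wt1 siRNA replicate 4 (adjusted p = 0.0517). The 2 dimmer ones were at 0.28 ± 0.22 and 0.07 ± 0.15 and did not pass. Perp, a membrane protein gene of desmosomes and of p53-dependent death, had 14720.9, 15492.4, 14477.9 and 14470.2 on Wt1 siRNA arrays and 10977.9, 10957.3, 11717.8 and 10160.9 on control siRNA arrays. These did not overlap, and Perp rose 1.35-fold (0.43 ± 0.07, adjusted p = 0.000261).

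Phlda3 encodes a pleckstrin homology protein that restrains the survival kinase Akt. Its signals were 28813.2, 30348.1, 28551.7 and 32517.3 after Wt1 siRNA and 25616.2, 25776.9, 26520.5 and 26293.1 after control siRNA, without overlap. The rise was only 1.15-fold (0.20 ± 0.07, adjusted p = 0.0326) and was not stable. It was 0.09 and did not pass under quantile normalization (adjusted p = 0.173). Its call was also lost with median centring (0.0812), no filter on signal (0.0697), no intensity trend (0.0509), the replicate number as a block (0.0598), and without Wt1 siRNA replicate 1 (0.0526), 2 (0.0814) or 4 (0.0544) or control siRNA replicate 2 (0.0786) or 4 (0.0746). Rps27l, a ribosomal protein paralogue gene induced by p53, was at 0.24 ± 0.09 and just missed the threshold (adjusted p = 0.0583). Its 3 probe sets had differences of 0.23 to 0.27 and non-overlapping groups, with Wt1 siRNA array 4 highest on each, but 2 are of a design class whose probes may bind related transcripts. It passed with median centring (adjusted p = 0.0466).

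Death receptors and the scaffold that links p53 to caspases were mixed. Eda2r, which encodes the receptor for ectodysplasin A2, showed the largest difference of any member on the brightest probe sets. Its signals were 2259.9, 2492.2, 2855.6 and 2082.2 on Wt1 siRNA arrays and 5936.7, 5568.5, 5851.0 and 5843.0 on control siRNA arrays. The control values were tight and every Wt1 siRNA value lay well below them, and Eda2r fell to 41.5% of control (-1.27 ± 0.10, adjusted p = 7.44e-07). That placed it at rank 78 of 9096 from the largest fall, and 1.9% of tested genes fell at least 2-fold, while 0.627% rose at least 2-fold. It rests on a single probe set.

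Tnfrsf10b, the mouse death receptor gene for TRAIL, was below the filter of the gene fit, which kept genes with a geometric mean signal of at least 663.9. Its signals were 653.0, 632.9, 901.2 and 1122.5 after Wt1 siRNA and 583.7, 529.4, 441.7 and 417.2 after control siRNA, so the groups did not overlap. In the fit over 22518 probe sets, where 10.8% rose, it passed on both of its probe sets (0.72 ± 0.21, adjusted p = 0.0297, and 0.49 ± 0.16, adjusted p = 0.0409). Both calls were lost without Wt1 siRNA replicate 4 (adjusted p = 0.0674 and 0.0775), and the second without control siRNA replicate 3 (0.0644). Fas, the receptor gene for Fas ligand, had 1047.2, 1393.7, 894.4 and 990.6 on Wt1 siRNA arrays against 1718.2, 1243.7, 1310.9 and 1235.9 on control siRNA arrays. Wt1 siRNA array 2 overlapped the controls and the difference of -0.36 ± 0.15 did not pass (adjusted p = 0.0866), but it did without that array (-0.48, adjusted p = 0.0244).

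Pidd1 encodes the scaffold of the PIDDosome, a complex that activates a caspase, and that caspase cleaves Mdm2. The Pidd1 signals were 1968.5, 2065.4, 1600.4 and 1851.9 after Wt1 siRNA and 2680.8, 2315.4, 2072.6 and 2261.4 after control siRNA. The groups were barely separated, and Pidd1 fell to 80.2% of control (-0.32 ± 0.11, adjusted p = 0.0364). The call was lost with median centring (0.315), with no filter on signal (0.0587), without Wt1 siRNA replicate 1 (0.0516), 3 (0.107) or 4 (0.0519), without control siRNA replicate 1 (0.106), 2 (0.0686) or 4 (0.0640), and in the fit over probe sets (0.0631). Apaf1, the core of the apoptosome, was at 0.22 ± 0.09 (adjusted p = 0.0791) with overlapping groups, and it passed when Wt1 siRNA replicate 4 was left out (0.26, adjusted p = 0.0482) and likewise with control siRNA replicate 3 left out (0.30, adjusted p = 0.0145). Triap1, a small mitochondrial survival protein gene (-0.05 ± 0.13), and Zmat3, an RNA-binding zinc finger gene (0.04 ± 0.09), did not pass, and the sign of each turned in some of the fits that left out 1 array.

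Of the 3 tested genes grouped as growth arrest genes and kinases, 1 rose (33.3%, against 18.8% of all tested genes) and 0 fell. This was Sertad1, which encodes a regulator of Cdk4 and E2F, and its rise does not by itself mean growth arrest. Its signals were 3477.9, 4374.8, 3917.8 and 4075.6 on Wt1 siRNA arrays and 2764.7, 2437.5, 2866.2 and 3007.4 on control siRNA arrays. Every Wt1 siRNA value was above every control, and Sertad1 rose 1.43-fold (0.52 ± 0.09, adjusted p = 0.00092). Btg2, an antiproliferative gene whose product recruits the mRNA deadenylation machinery, differed between its probe sets. The brightest overlapped between groups (0.16 ± 0.10, adjusted p = 0.249), while the other had 9845.2, 9248.4, 10245.7 and 10136.0 after Wt1 siRNA and 7029.0, 6485.5, 8722.4 and 7198.0 after control siRNA. On that second one the groups did not overlap and it passed the fit over probe sets (0.43 ± 0.09, adjusted p = 0.00554).

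The polo-like kinase genes Plk2 and Plk3 had negative differences that did not pass. Plk2 was at -0.17 ± 0.07 (adjusted p = 0.0698), and passed under quantile normalization (-0.23, adjusted p = 0.00417) and without control siRNA replicate 1 (-0.22, adjusted p = 0.0258). Plk3 lay below the gene filter with 441.9, 700.3, 579.6 and 115.5 after Wt1 siRNA and 795.8, 794.7, 571.9 and 586.8 after control siRNA. One Wt1 siRNA array, number 4, was near background and the log2 difference was -0.84 ± 0.46 (adjusted p = 0.215 in the fit over probe sets).

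The metabolic targets held the clearest contrast within a family. Sestrins, encoded by Sesn1 and Sesn2, restrain the growth kinase complex mTORC1 when amino acids are scarce or cells are stressed. Sesn1 had signals of 998.6, 836.0, 966.8 and 927.4 on Wt1 siRNA arrays and 1745.2, 1716.4, 2190.9 and 1651.8 on control siRNA arrays. No array overlapped, and Sesn1 fell to 51.3% of control (-0.96 ± 0.12, adjusted p = 4.8e-05). A second probe set had 296.2, 448.8, 401.3 and 420.7 after Wt1 siRNA, against 1160.5, 1027.6, 1634.3 and 928.1 after control siRNA (-1.58 ± 0.21, adjusted p = 0.000273). A dimmer one had 282.1, 248.3, 251.2 and 289.5 after Wt1 siRNA, against 720.5, 792.5, 1059.8 and 787.0 after control siRNA. All its Wt1 siRNA values lay under the lowest geometric mean that the fit over probe sets admitted (291.1), so it entered through the control siRNA arrays and its difference of -1.64 is given as a description. The second probe set fell to 33.4% of control, while another, with mean signals of 188.5 after Wt1 siRNA and 182.6 after control siRNA, was untested and near the level of the bacterial controls. The brightest and the second probe set are both of the design class whose probes may bind related transcripts. With that class left out, Sesn1 was not tested.

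Sesn2 did not follow Sesn1. On its brightest probe set the signals were 6796.1, 7808.2, 6472.2 and 4064.5 after Wt1 siRNA and 5196.2, 5054.6, 4210.1 and 5700.8 after control siRNA. Wt1 siRNA arrays 1 to 3 were above all controls and array 4 was under all of them, so the difference of 0.29 ± 0.16 did not pass (adjusted p = 0.181), and it did without that array (0.48, adjusted p = 0.00294). The other Sesn2 probe set, with 4190.6, 4766.2, 3696.3 and 4788.7 after Wt1 siRNA and 3944.3, 3070.3, 2102.6 and 3106.3 after control siRNA, passed the fit over probe sets (0.54 ± 0.16, adjusted p = 0.0339). Here array 4 was the highest of its group, the opposite of its place on the brightest probe set, and the call was lost without it (adjusted p = 0.0730). Ephx1, which encodes the microsomal epoxide hydrolase of detoxification, had 31426.2, 31512.6, 31382.7 and 29131.2 on Wt1 siRNA arrays and 22716.7, 25282.7, 23583.8 and 23972.2 on control siRNA arrays. The groups were far apart relative to their spread, and Ephx1 rose 1.29-fold (0.37 ± 0.07, adjusted p = 0.000953).

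**Figure D3:**
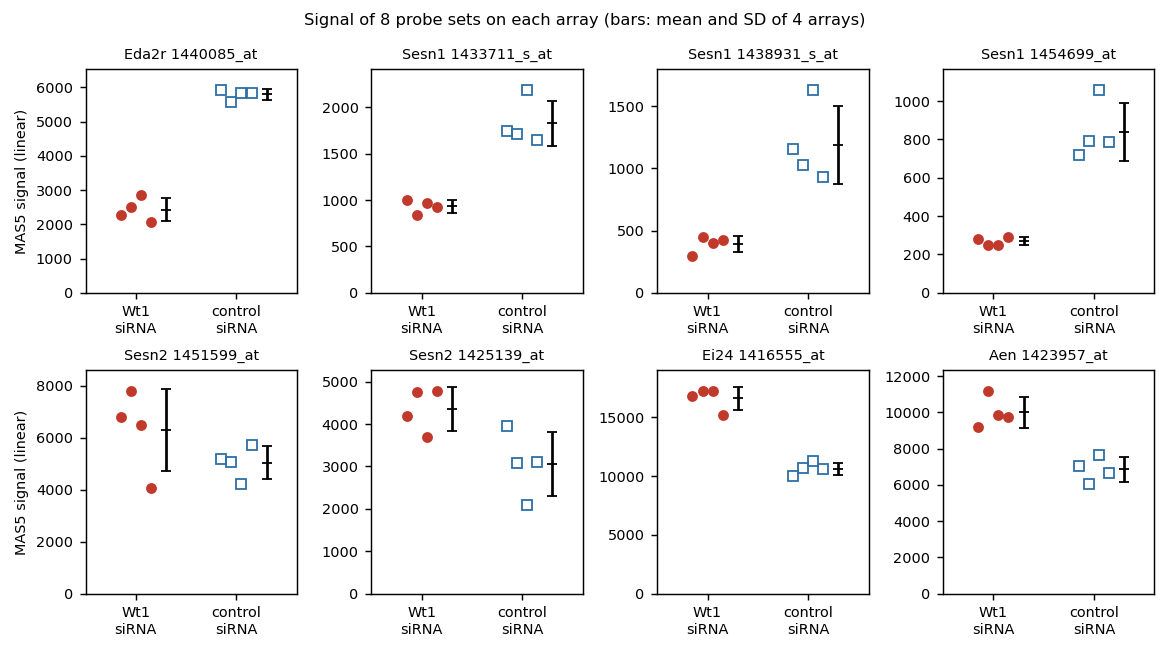
Linear MAS5 signal of 8 probe sets on each array, with the mean and SD of the 4 Wt1 siRNA arrays (red circles) and the 4 control siRNA arrays (blue squares), every axis starting at 0. Eda2r and all 3 tested Sesn1 probe sets are lower after Wt1 siRNA without overlap, Ei24 and Aen are higher without overlap, and the 2 Sesn2 probe sets overlap between groups.

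Over all 55 probe sets of the members, 48 were bright enough for the fit over probe sets. Of these 13 rose, 4 fell (the dimmer Sesn1 probe set described above among them) and 31 did not pass, a share called of 35.4% against 23.1% of all 22518 tested probe sets. Probe sets of 1 gene are not separate members. Sesn1 gave 3 of the 4 falls, and Aen and Tnfrsf10b gave more than 1 rise each. Counted by gene, the share was 40.7% against 37.3%. Leaving out Wt1 siRNA replicate 4 gave 8 higher and 5 lower, and leaving out control siRNA replicate 3 gave 12 higher and 5 lower. Several tested probe sets could be compared for 14 members. They had the same sign in 13, and Polk, with 0.13 and -0.20, was the exception, without a call on either. In no member did 1 probe set rise and another fall.

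Of 23 further p53 targets that are no members of the set, 13 rose (56.5%, against 18.8% of all tested genes), 0 fell and 10 did not pass by limma, and 0 were lower at an unadjusted p under 0.05 as well. The median log2 difference of this list was 0.27, against 0.02 for all tested genes. Like the members and the lists below, these genes were chosen with earlier results of these data known, so the shares describe them and are no test. Among the brightest 0.25 of genes, which held 19 of these targets, 12 of them rose and 0 fell. Of all 4548 genes tested there, 1095 rose and 775 fell. Tigar, whose product lowers glycolytic flux, rose 2.01-fold (1.01 ± 0.10, adjusted p = 7.45e-06). Its signals were 2022.8, 2199.4, 2098.8 and 2496.7 on Wt1 siRNA arrays and 1111.3, 1097.1, 1063.2 and 1107.8 on control siRNA arrays, with no overlap. Cdkn1a, the gene of the cell cycle inhibitor p21, had 38934.1, 38306.7, 35190.9 and 44068.7 on Wt1 siRNA arrays, against 28924.5, 29296.3, 29792.7 and 29910.0 on control siRNA arrays, and rose 1.32-fold (0.40 ± 0.08, adjusted p = 0.00133). The cyclin G1 gene Ccng1 rose 1.43-fold, the RNA-binding protein gene Rbm38 1.45-fold, Zfp365 1.38-fold, the adenylate kinase gene Ak1 1.33-fold and Pmaip1, which encodes the BH3-only protein Noxa, 1.25-fold. Pmaip1 no longer passed without Wt1 siRNA replicate 1 (adjusted p = 0.0518). Bbc3, which encodes the BH3-only protein Puma, was at 0.23 ± 0.15 and did not pass (adjusted p = 0.246), but it did without control siRNA replicate 1 (0.38, adjusted p = 0.0398). On Wt1 siRNA arrays 1 to 4, 20, 22, 20 and 19 of the 23 lay above the control mean, and on control siRNA arrays 1 to 4, 10, 8, 12 and 16 did.

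Of 21 tested upstream regulators and damage kinases, 4 rose (19%), 3 fell (14.3%) and 14 did not pass, against 18.8% and 18.5% of all tested genes, and the median was 0.07. The checkpoint kinase gene Chek2 rose 1.32-fold (0.41 ± 0.08, adjusted p = 0.00146), the deacetylase gene Sirt1 1.43-fold (0.52 ± 0.12, adjusted p = 0.00522) and the nucleolar gene Npm1 1.21-fold, while Ppp1r13b, encoding the p53 cofactor ASPP1, fell to 66.7% of control (-0.58 ± 0.14, adjusted p = 0.00628). Hipk2, a kinase gene upstream of p53, fell to 80.4% of control (-0.32 ± 0.08, adjusted p = 0.00729), but not with median centring (-0.21, adjusted p = 0.298) or the mean over probe sets (-0.06, adjusted p = 0.729). Ppp1r13l, encoding the inhibitory relative iASPP, rose 1.21-fold with overlapping groups (adjusted p = 0.0448), a call that 8 alternatives ended, among them those without Wt1 siRNA replicate 1 (0.0909), 2 (0.0994) or 4 (0.101) or control siRNA replicate 1 (0.123) or 2 (0.0991). The ribosomal protein gene Rpl11 (-0.24 ± 0.09, adjusted p = 0.0461) also fell, with overlapping groups, and was named after its value was seen to complete the count. With no filter on signal, no intensity trend or the replicate block the list had 2 falls, and Hipk2 and Ppp1r13b kept their calls there. Leaving out 1 array gave 2 to 3 falls.

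Cell cycle genes that p53 is known to repress through p21 and the DREAM complex were lower in a few cases. Of 15 tested, 4 fell (26.7%, against 18.5% of all tested genes), 0 rose (0 also at an unadjusted p under 0.05) and 11 did not pass by limma, with a median of -0.08. Ccnb2 fell to 67.3% of control (-0.57 ± 0.07, adjusted p = 4.45e-05), with 7510.2, 7101.5, 8124.5 and 7079.8 on Wt1 siRNA arrays and 10396.8, 11018.3, 11616.9 and 11251.8 on control siRNA arrays. The phosphatase gene Cdc25c fell to 71% of control, the centromere histone gene Cenpa to 75.7% and the replication helicase gene Mcm5 to 84.1%. Mcm5, at -0.25, lost its call under 7 alternatives. It was at -0.12 without shared-sequence probe sets (adjusted p = 0.299) and at -0.14 with median centring (0.503). It also lost it with the mean over probe sets (0.0584), with no filter on signal (0.0531), and without Wt1 siRNA replicate 2 (0.077) or 3 (0.0522) or control siRNA replicate 2 (0.0537). The size of this group depended on the scaling, since median centring left only 1 fall and a list median of 0.03, and quantile normalization gave 7 falls and a median of -0.17. Median centring raised the median of all tested genes to 0.124 (log2) from 0.016. On that scale 17.4% of all tested genes rose and 8.63% fell (19.6% and 18.8% under quantile normalization). The members then had 8 rises and 2 falls, the other targets 12 rises and 0 falls, and the regulators 4 rises and 1 fall. Under quantile normalization the members had 8 rises and 4 falls, the other targets 13 and 0, and the regulators 5 and 4.

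**Figure D4:**
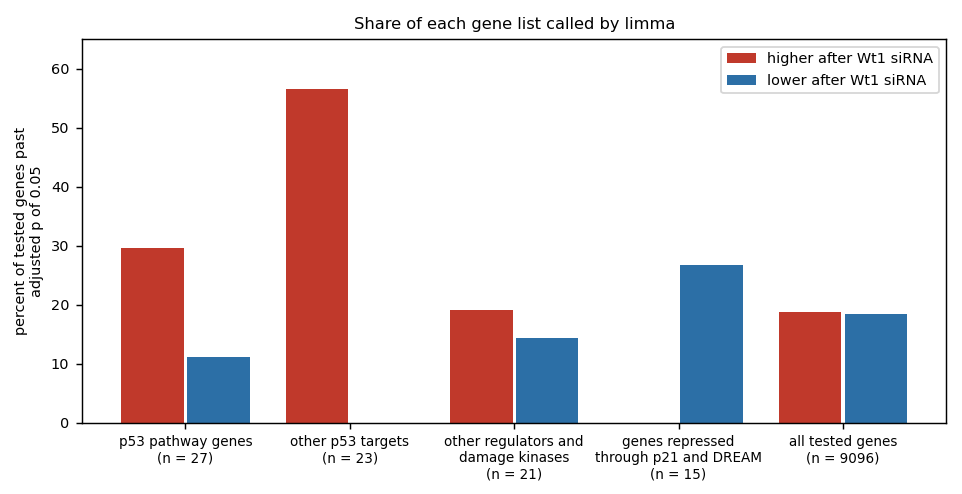
Bars give the percent of tested genes past an adjusted p of 0.05 in limma, higher (red) or lower (blue) after Wt1 siRNA, for 4 gene lists and for all 9096 tested genes. The p53 pathway genes had 29.6% higher and 11.1% lower and the other p53 targets 56.5% higher, against 18.8% and 18.5% of all tested genes. The lists are small (15 to 27 genes), were chosen with earlier results of these data known and carry no error bars.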

How the data were processed

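RNA from 8 samples (4 Wt1 siRNA, 4 control siRNA) was measured on 1 array each. The deposited values are intensities, MAS5 signals made by the authors, per the submitters' processing notes; each array has a trimmed mean of 1500.01 (2% trimmed at each end). Arrays have no read depth, and precision is set by how many there are. Probe sets were named from the platform annotation updated through RefSeq, 932 with several genes and 9160 with none stayed unnamed. Signals were log2 transformed with no pseudocount. Each gene was represented by its probe set with the highest mean, and the brighter 0.5 of genes (9096 of 18193) was tested with limma 3.58.1 (R 4.3.3, eBayes with an intensity trend) and Benjamini-Hochberg adjustment over all tested genes at 0.05, without the replicate number as a block. A separate fit covered 22518 of 45037 probe sets. Standard errors are those of the fit. On simulated data with 200 changed genes among 9096, 74% of log2 changes of 0.5 and 100% of those of 1 were recovered, and 9 of 183 calls were unchanged genes. The simulation had independent noise and far fewer changed genes than the 37.3% called in the data. Its changes were also larger than the median member difference (0.24 without its sign), so these rates need not hold for the members. Named genes were all members, Wt1, up to 6 genes past the threshold by size of change in each further list, and Cdkn1a, Bax, Bbc3, Pmaip1 and Ccng1, of which Bax was not analysed here. Members and lists were chosen with earlier results of these data known. The alternatives were other normalizations, filters, pseudocounts, probe set rules and fits, and each array left out. No 2 arrays were copies of one another.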

Additional observations from a re-analysis of the deposited data

Results flagged for a closer look

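In 5 of 60 groups of 4 arrays (2 groups for each of the members and Wt1), 1 array lay far from the other 3 by Dixon's ratio, the gap to the nearest array divided by the whole range, above its 95% critical value. Chance flags about 1 in 20 groups. Wt1 siRNA array 4 was the low one in 3 of them: Mdm4 (ratio 0.849), Xpc (0.843) and Ephx1 (0.947). Among control siRNA arrays, array 3 was high for Mdm4 (0.909) and array 1 was low for Btg2 (0.846).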

How the results depend on the processing

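Of the 11 called members, 8 (Trp53inp1, Eda2r, Aen, Ei24, Perp, Sertad1, Sesn1 and Ephx1) kept their call and direction under each of the 20 alternatives that tested them. Sesn1 was not tested without shared-sequence probe sets or with the brightest 0.25 of genes. The losses of Mdm2, Pidd1 and Phlda3 are given with their values above. With the brightest 0.25 of genes, where fewer genes were tested, 1 member was lower, and 1095 of all genes were higher and 775 lower. With median centring, 785 of all genes were lower. With no filter on signal, 7 member probe sets were higher. That fit kept the same log2 differences, but the adjustment and the intensity trend then ran over all 45037 probe sets. The part of each in the lower count was not tested. With arrays weighted in the fit, 11 members were higher and 4 lower, and 2431 of all genes were higher and 2009 lower. Ppm1d (adjusted p = 0.0172), Apaf1 (0.0118), Plk2 (-0.18, 0.0196) and Sesn2 (0.0188) passed there. With the mean over probe sets, 10 members were higher and 3 lower, and 1152 of all genes higher and 1225 lower. Btg2 (0.017) and Sesn2 (0.0401) passed there. Leaving out 1 array gave 6 to 9 members higher and 2 to 4 lower, 1372 to 1820 of all genes higher and 1425 to 1653 lower, a member median of 0.14 to 0.21 and a Wt1 difference of -2.37 to -2.19. The probe set fits without Wt1 siRNA replicate 4 or control siRNA replicate 3, chosen after seeing the data, gave 8 to 12 member probe sets higher and 5 lower. Replicate numbers did not pair the samples: deviations of same-numbered arrays correlated at 0.084, -0.077, 0.083 and 0.039, and 1 of 4 Wt1 siRNA arrays correlated best with its own number. With the replicate block, 7 members were higher and 3 lower, the member median was 0.16 and the Wt1 difference -2.28. Over all genes the block gave 1702 higher and 1712 lower, and 9 member probe sets higher and 4 lower. Dim probe sets limit what can be read: the array controls from bacteria reached 227.2.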
